A study of Mus musculus with 12 samples.

Results

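The CA1 region of mice that had expressed VP16-CREB for 3 weeks was compared with CA1 of wild-type mice on 3 of the 12 arrays of the study, picked by their sample labels. VP16-CREB is CREB, a transcription factor, made permanently active by fusion to the VP16 activation domain. Mice that carry it as a transgene (VC mice) keep it off as long as they receive doxycycline (dox) and turn it on once dox is removed. Of the 3 arrays, 2 held microdissected CA1 from VC mice 3 weeks off dox (VC CA1 arrays 1 and 2) and 1 held microdissected CA1 from wild-type mice that had been kept under the same conditions. Whole hippocampus served beside them. It came from VC mice 2 weeks (n = 2 arrays) or 5 weeks (n = 1) off dox, called late induced hippocampus here, and from 3 arrays without induction, called never-induced hippocampus: wild-type mice (n = 2) and VC mice on dox (n = 1). Arrays of VC hippocampus 1 week off dox (n = 2) entered only the estimate of spread. The array of VC mice given dox again for 2 weeks after 3 weeks of expression (n = 1) was a level of its own in the fit and entered no comparison. Each hippocampal sample pooled 6 to 10 mice, and the labels do not say separately how many mice each CA1 sample held. The study asked which induced genes go along with a facilitated late form of long-term potentiation (L-LTP), the lasting strengthening of synapses. CA1 was dissected because a change limited to a subfield can be diluted in whole hippocampus.

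CREB is a transcription factor that binds the cyclic AMP response element (CRE) in the promoters of its targets and activates them once it is phosphorylated. The VP16 activation domain of a herpes virus protein removes the need for that step. Well known CREB targets in hippocampal neurons are the neuropeptide genes Sst and Pdyn, the neurotrophin gene Bdnf and immediate early genes such as Fos. In the mouse line known from the literature the transgene is driven in forebrain neurons through the CaMKIIα promoter, which the labels used here do not state. CA1 pyramidal cells are the main excitatory neurons of the dissected region, with astrocytes, oligodendrocytes, microglia and vessels between them. Microglia are the resident macrophages of the brain. They hold the complement component C1q and, when activated, the MHC class II proteins that present peptides to T cells. In pooled tissue, fewer cells of a type and less RNA per cell cannot be told apart.

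All levels below are log2 values of intensities that had been brought to a common scale. Values below 6.04 were set to that floor, so a fold against an array at the floor is a lower bound. Differences are VC CA1 minus wild-type CA1, with the standard error (SE) and adjusted p of limma over 7069 tested probe sets, two-sided. A probe set is the array's unit for 1 transcript, and some genes have several. The wild-type side rests on 1 array, so every SE assumes that this array varies like the replicated groups do. Arrays at the floor show no spread among themselves, so SE and p are understated where replicated groups lie at it.

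VC CA1 array 2 stood apart, and was less like the other CA1 arrays than any pair of hippocampal arrays were like each other. Over the tested probe sets its correlation was 0.916 with VC CA1 array 1, 0.907 with wild-type CA1 and 0.921 with the 5-week hippocampus array. VC CA1 array 1 correlated at 0.947 with wild-type CA1, and pairs of hippocampal arrays at 0.932 to 0.978. The median SD of the VC CA1 pair was 0.252, against 0.142 to 0.168 in the replicated hippocampal groups. The ratio of the 3′ to the 5′ control for beta-actin, a measure of RNA integrity, was 3.73 and 1.40 on VC CA1 arrays 1 and 2 and 1.83 on the wild-type CA1 array, beside 1.80 to 2.81 in hippocampus. In the same order, Gapdh had 1.13, 0.84 and 1.17, beside 0.87 to 1.36. Pyruvate carboxylase had 6.73, 4.91 and 5.59, beside 2.07 to 3.79. Transferrin receptor had 2.68, 4.26 and 8.06, beside 1.17 to 4.91. The 8.06 of wild-type CA1 rests on a dim 5′ control (28.0 on the linear scale). Among the 707 brightest probe sets, VC CA1 array 2 lay a median of 0.18 below wild-type CA1, while VC CA1 array 1 lay 0.03 above it. Each VC CA1 array is therefore given apart, and the part of these array properties in the results was not tested.

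The CA1 label was checked against marker genes. Of 10 CA1 pyramidal cell markers tested, only Zbtb20, a transcriptional repressor of CA1 pyramidal neurons, was called in wild-type CA1 against never-induced hippocampus, with 10.68 against a mean of 8.35 (adjusted p = 0.0227). In that comparison 818 probe sets (11.6%) passed, 200 (2.83%) higher and 618 (8.74%) lower. Zbtb20 was named after its value was seen. Wfs1, a CA1 marker in the endoplasmic reticulum, had 11.44 and 12.02 in VC CA1, 11.95 in wild-type CA1 and a mean of 11.54 in never-induced hippocampus. Ttr, the transthyretin gene of the choroid plexus, had 6.32 and 7.94 in VC CA1 and 7.20 in wild-type CA1, against a mean of 11.00 in never-induced hippocampus. The 11 choroid plexus and ependyma markers had a median of -0.95 in wild-type CA1 minus never-induced hippocampus, with 4 called lower. Prox1, the defining transcription factor of dentate granule cells, lay under the filter for dim probe sets and was not tested.

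Creb1, the CREB gene itself, gave far more signal in VC CA1. Probe set 102672_g_at had 8.86 and 9.56 in VC CA1, against 6.04, the floor, in wild-type CA1. Both VC arrays lay above wild-type CA1 and above all 3 never-induced arrays, whose mean was 6.13. The difference was 3.17 ± 0.33 (SE), at least 9.0-fold, with an adjusted p of 0.00558. The other tested Creb1 probe set, 102671_at, had 7.69 and 8.80 in VC CA1 and 6.04 in wild-type CA1 (difference 2.21, adjusted p = 0.155). Never-induced hippocampus averaged 7.22 on it, so that only wild-type CA1 lay at the floor there. The sources used here do not say how far each of them reads the transgene or the mouse's own Creb1.

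In CA1, 89 of 7069 probe sets (1.26%) passed an adjusted p of 0.05, of which 80 (1.13%) were higher in VC CA1 and 9 (0.127%) lower. Without adjustment 779 (11%) had a p under 0.05. Of the 89, 78 carried a single gene symbol and stood for 74 genes. The VC arrays lay within 0.5 of each other for 65 of the 89 and at least 1 apart for 3, with a median gap of 0.21, against 0.36 over all tested probe sets. VC CA1 array 2 was the higher of the pair for 40 of the 89. Wild-type CA1 lay at the floor for 15 of the 80 higher probe sets. These counts rest on the spread taken from hippocampus. With the spread of the CA1 arrays alone, none passed (270 unadjusted), and with region-specific array weights 5 did: Cd74, A2m, Cd52, H2-Aa and Pdyn 161987_at. Against wild type, VC CA1 array 1 alone gave 128 calls, 73 of them among the 89, and VC CA1 array 2 alone gave 381, with 88 shared. Without wild-type hippocampus array 2 the count was 42.

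**Figure D1:**
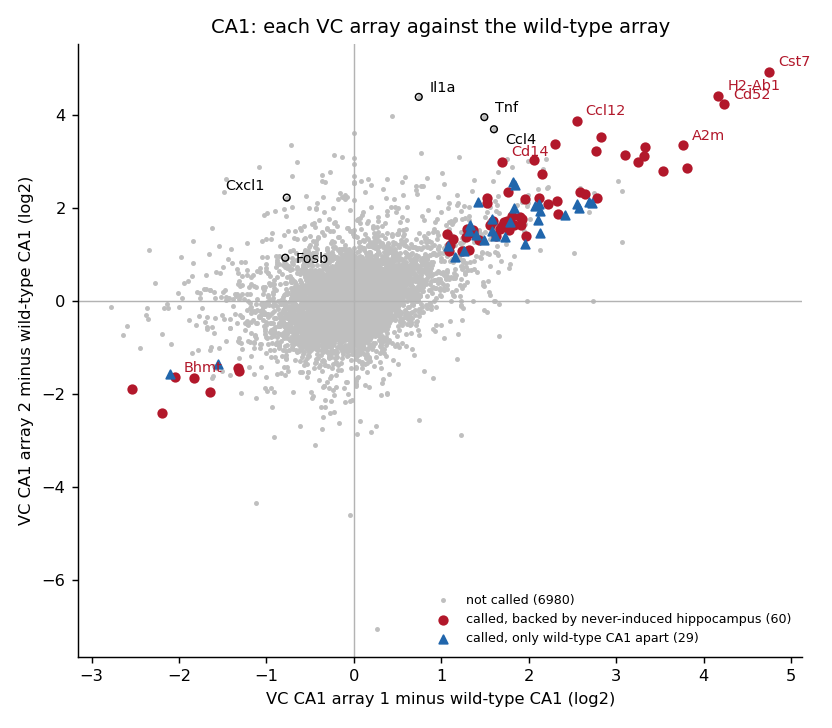
Difference of VC CA1 array 1 (x axis) and of VC CA1 array 2 (y axis) from the wild-type CA1 array, log2, 1 point for each of 7069 tested probe sets. Red circles are the 60 called probe sets backed by never-induced hippocampus and blue triangles the 29 where only wild-type CA1 lay apart; the called points lie near the diagonal from Bhmt at the lower left to Cst7 at the upper right, while the uncalled Il1a, Tnf, Ccl4, Cxcl1 and Fosb rest mainly on array 2.

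With a single wild-type CA1 array, a low reading on that array alone also raises the difference. The never-induced hippocampal arrays were therefore used to sort the 80 higher probe sets. In 53, both VC CA1 arrays lay above wild-type CA1 and above all 3 never-induced arrays, and these are called backed. Of the 3387 tested probe sets with a higher mean in VC CA1, 591 lie that way, or 8.36% of all 7069 tested. As shares of the 3387, these are 16.2% and, where the never-induced mean also lies nearer to VC CA1, 1.21% more. In the other 27, never-induced hippocampus lay nearer to VC CA1 than to wild-type CA1, so that only wild-type CA1 stood apart. Of the same 3387, 2249 (66.4%) are of that kind. Among the backed 53 were 12 whose never-induced mean also lay nearer to VC CA1, which brings those near VC CA1 to 39. The backed 53 had median levels of 10.48 in VC CA1, 8.04 in wild-type CA1 and 8.93 in never-induced hippocampus. The 27 had median levels of 8.32 in VC CA1, 6.42 in wild-type CA1 and 8.93 in never-induced hippocampus, the median in VC CA1 lying between the other 2. Late induced minus never-induced hippocampus was positive for 52 of the backed 53 (median 1.27) and for 12 of the 27 (median -0.10). Over all tested probe sets it was positive for 3103 of 7069. In its own test 73 probe sets (1.03%) were called, 68 (0.962%) higher and 5 (0.0707%) lower. Among them were 36 of the backed 53, as higher, and none of the 27. The late difference shares no array with that in CA1, but its 3 never-induced arrays also did the sorting. Both tests take the spread of each probe set from the same fit, so their calls are not independent. Low never-induced values both place a probe set among the 53 and raise its late difference. The split between the 53 and the 27 is therefore not independent of the sort. Of the 9 lower probe sets, 7 were backed in the mirrored sense and 2 were not. Of the 3682 tested probe sets without a higher mean in VC CA1, 930 are backed in that sense, or 13.2% of all 7069 tested. As shares of the 3682, these are 24.6% and, where the never-induced mean also lies nearer to VC CA1, 0.652% more.

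**Figure D2:**
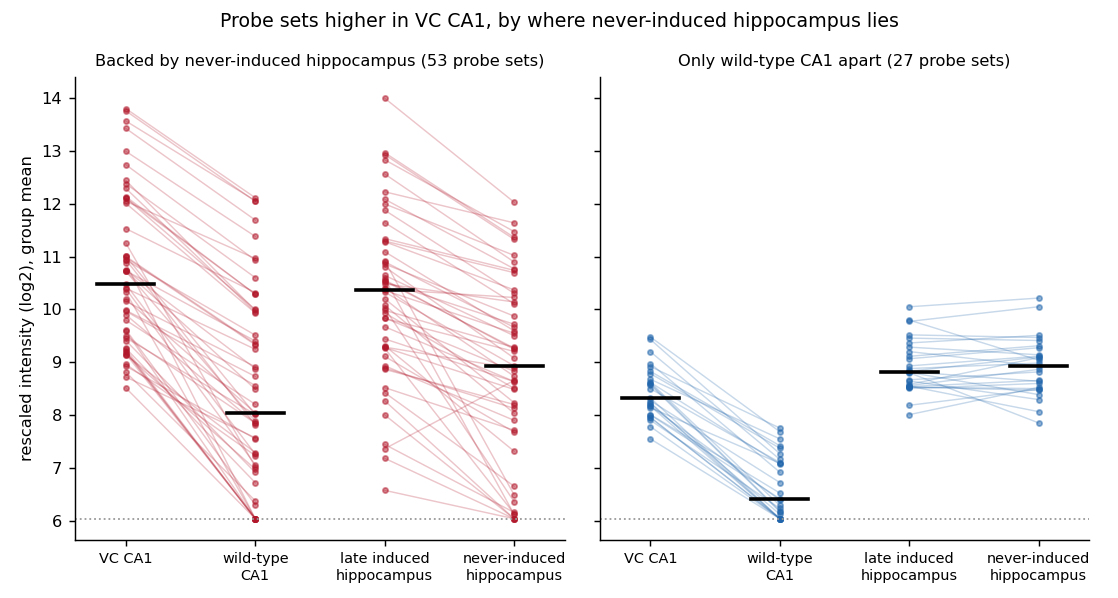
Group means (log2 of rescaled intensity) of the 80 probe sets higher in VC CA1, in VC CA1, wild-type CA1, late induced hippocampus and never-induced hippocampus, with lines joining each pair of groups for 1 probe set and black bars at the medians. On the left, the 53 backed probe sets have medians of 10.48 in VC CA1 and 8.04 in wild-type CA1; on the right, the 27 where only wild-type CA1 stood apart have 8.32 and 6.42, beside 8.93 in never-induced hippocampus.

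Genes of microglia and macrophages made up the largest group that rose. Of 29 marker genes tested, 14 were called higher and none lower, all 14 of them backed, with 28 of 29 positive and a median difference of 1.61 beside -0.02 over all tested probe sets. The medians were 1.59 on VC CA1 array 1 and 1.69 on array 2. Cst7, the gene for cystatin F, which inhibits lysosomal proteases of immune cells, had 10.79 and 10.96 in VC CA1 and 6.04 in wild-type CA1. It read 6.12 on average in never-induced hippocampus, so both references lay at or near the floor. The difference of 4.84 ± 0.49 (adjusted p = 0.00558), at least 28.6-fold, was the largest of all called probe sets. Cd52, a small surface glycoprotein of leukocytes, had 11.26 on both VC CA1 arrays, against 7.02 in wild-type CA1 and a mean of 8.04 in never-induced hippocampus. It rose 18.8-fold (4.23 ± 0.23, adjusted p = 0.000278).

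The 3 genes for the chains of complement C1q, the recognition molecule of the classical pathway, rose from already high levels, each on its brightest tested probe set. C1qa had 13.68 and 13.46 in VC CA1 and 12.06 in wild-type CA1 (1.51, adjusted p = 0.0308). C1qb had 13.06 and 12.93 in VC CA1, against 11.38 in wild-type CA1 on 96020_at (1.61, adjusted p = 0.0202). Its probe set 162276_i_at differed by 0.32 and did not pass (adjusted p = 0.808). C1qc had 13.77 and 13.76 in VC CA1, against 12.05 in wild-type CA1 (1.71, adjusted p = 0.00716). On the 3 called probe sets both VC CA1 arrays lay at least 1 log2 unit above wild-type CA1, as for 2.63% of all tested probe sets. Genes of the lysosome and of phagocytosis were named after their values were seen. Ctsz, a lysosomal cysteine protease, had 10.82 and 10.63 in VC CA1, against 8.49 in wild-type CA1 (2.23, adjusted p = 0.00558). Mpeg1, which encodes the pore-forming perforin-2 of macrophages, had 12.57 and 12.32 in VC CA1, against 9.98 in wild-type CA1 (2.46). Cd68, a lysosomal membrane protein, had 10.40 and 11.09 in VC CA1, against 8.88 in wild-type CA1 (1.86), and Itgax, the integrin CD11c, had 9.76 and 9.83 in VC CA1, against 8.20 in wild-type CA1 (1.59). Cyba, the membrane subunit p22phox of the NADPH oxidase, had 10.92 and 11.05 in VC CA1, against 9.33 in wild-type CA1 on 100059_at (1.66, adjusted p = 0.00774), and 9.58 and 8.83 in VC CA1, against the floor in wild-type CA1 on 97013_f_at (3.17). On that second probe set never-induced hippocampus averaged 7.90, nearer to VC CA1 than to wild-type CA1. Also called outside the list, and likewise named afterwards, were Ly86 (2.11), Inpp5d (2.44), Grn (1.21), Ctsh (1.24), Lcp1 (1.65) and Arhgdib (1.78), genes of myeloid cell signalling, lysosome and cytoskeleton.

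Markers that did not pass give the other side of the same list. Tyrobp, the signalling adaptor of microglial receptors, had 12.44 and 12.22 in VC CA1, 10.88 in wild-type CA1 and 9.62 in never-induced hippocampus (1.44, adjusted p = 0.180). Csf1r, the growth factor receptor that microglia depend on, had 12.61 and 12.28 in VC CA1, against 11.70 in wild-type CA1 (0.74, adjusted p = 0.238). Cx3cr1, a chemokine receptor of resting microglia, had 9.37 and 9.19 in VC CA1, 8.34 in wild-type CA1 and 9.84 in never-induced hippocampus (0.95, adjusted p = 0.156). Spi1, the myeloid transcription factor PU.1, differed by 0.02. Csf1r, Cx3cr1 and Spi1 were named after their values were seen. The summed level of the 29 markers was 100415 and 97962 in VC CA1, against 35263 in wild-type CA1, on the linear scale. Late induced hippocampus had 46035 to 88114 and never-induced hippocampus 27969 to 30966. The count of 14 became 9 without wild-type hippocampus array 2 and 15 with either VC CA1 array left out. It was 2 with hippocampus at 1, 2 and 5 weeks off dox taken as 1 level and 3 with arrays weighted by region. It was 0 in the limma fits that called no probe set at all: CA1 arrays only and arrays of the lower deposited scale only (270 unadjusted each over all probe sets) and values as deposited (36 unadjusted). The list's median was 1.61 in each of these last 5 fits. That was fixed in advance, because these fits leave the CA1 arrays, apart from the floor, on nearly the same relative scale.

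**Figure D3:**
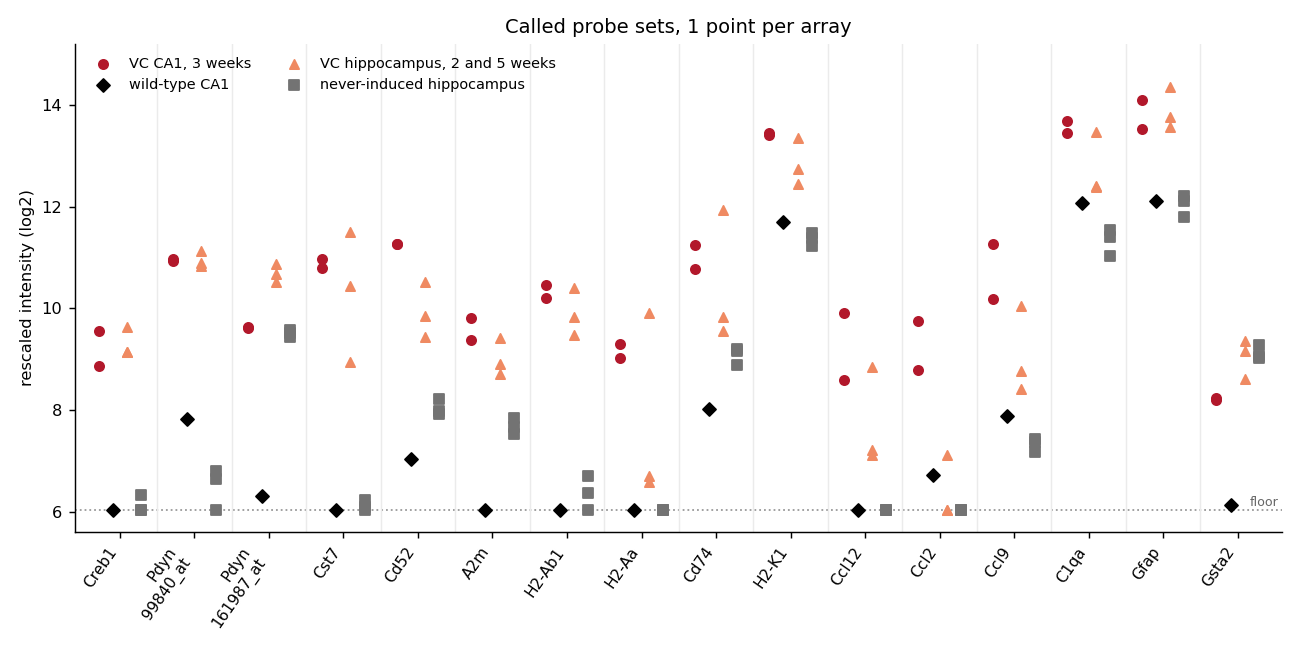
Log2 level of 16 called probe sets on each array: VC CA1 (red circles, n = 2), wild-type CA1 (black diamond, n = 1), VC hippocampus 2 and 5 weeks off dox (orange triangles, n = 3) and never-induced hippocampus (grey squares, n = 3), with the floor of 6.04 dotted. Cst7 reads 10.79 and 10.96 in VC CA1 and 6.04 in wild-type CA1; on Pdyn 161987_at and Gsta2 the grey squares lie far above the black diamond.

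MHC class II genes rose on both VC arrays. H2-Ab1 and H2-Aa encode the β and α chains of the class II molecule I-A, and Cd74 its chaperone, the invariant chain. H2-Ab1 had 10.21 and 10.45 in VC CA1, against 6.04 in wild-type CA1 and a mean of 6.36 in never-induced hippocampus (4.29 ± 0.58, at least 19.6-fold, adjusted p = 0.0128). H2-Aa had 9.29 and 9.03 in VC CA1 and lay at the floor on wild-type CA1 and on all never-induced arrays (3.12 ± 0.20, at least 8.70-fold, adjusted p = 0.00029). Both 1-week arrays lay at the floor too, so this SE and p rest on a spread that the floor made small. Outside VC CA1, H2-Aa read at most 6.70 save for 9.90 on the 5-week array. Induced arrays alone could thus carry it through the filter. Cd74 had 10.78 and 11.24 in VC CA1, against 8.01 in wild-type CA1 and a mean of 9.08 in never-induced hippocampus (3.00 ± 0.26, 7.98-fold, adjusted p = 0.00198). In all 3 genes both VC arrays lay above wild-type CA1 and all never-induced arrays, as in 8.36% of all tested probe sets. Of the 8 class II genes tested these 3 rose, all 8 were positive and the median was 1.97. The count of 3 became 5 without VC CA1 array 2, 1 of 3 tested genes under a stricter filter, and 0 with the induced hippocampus as 1 level or in the fits that called no probe set. The VC arrays differed on the rest: the list median was 2.64 on array 1 and 1.41 on array 2. H2-DMb1, a subunit of the peptide-loading chaperone H2-DM, had 9.93 and 8.43 in VC CA1, against 7.41 in wild-type CA1 (1.77, adjusted p = 0.208), and H2-Eb1, the β chain of I-E, had 8.55 and 8.94 in VC CA1, against 8.11 in wild-type CA1 (0.63, adjusted p = 0.661). Both were named after their values were seen. The class II and Cd74 genes are in the microglial list too, so these counts are not separate evidence.

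H2-Aa is shown with its promoter because it was the only called gene with a full CRE among those that rose. Promoter windows ran from 250 bases before to 50 after the start of each gene (RefSeq, GRCm38.p6). The window of Sst, the gene in whose rat counterpart the CRE was described, is set beside it. Capitals mark the full CRE, TGACGTCA, which reads the same on both strands. H2-Aa lies at chr17:34287774-34288073 and Sst at chr16:23890795-23891094, both on the minus strand, and the site begins at position -74 from the start in H2-Aa and at -48 in Sst.
H2-Aa: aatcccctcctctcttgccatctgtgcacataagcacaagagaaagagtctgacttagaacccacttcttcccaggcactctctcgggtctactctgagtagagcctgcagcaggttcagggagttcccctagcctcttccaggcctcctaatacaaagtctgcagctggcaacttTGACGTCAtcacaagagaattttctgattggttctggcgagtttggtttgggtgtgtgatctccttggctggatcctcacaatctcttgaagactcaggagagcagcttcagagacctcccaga
Sst: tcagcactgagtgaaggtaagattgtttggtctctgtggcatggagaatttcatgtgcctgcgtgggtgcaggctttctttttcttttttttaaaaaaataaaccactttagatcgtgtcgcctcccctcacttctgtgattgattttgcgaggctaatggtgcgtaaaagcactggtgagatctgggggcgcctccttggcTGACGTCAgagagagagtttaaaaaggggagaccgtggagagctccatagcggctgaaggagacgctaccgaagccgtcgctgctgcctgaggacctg
Sst, the precursor gene of somatostatin, had 13.55 and 13.25 in VC CA1 and 13.39 in wild-type CA1, a difference of 0.01 ± 0.21 (adjusted p = 0.991). Its VC arrays lay on either side of wild type, whereas those of H2-Aa lay far above it. The full site was found in 1 of 50 genes called higher that had a window in the RefSeq table (2%), against 158 of 4389 genes tested (3.6%). The shorter core, TGACG or its complement CGTCA, which the full site contains, was found in 15 of 50 (30%), against 1625 of 4389 (37%). A match describes these letters and says nothing of binding.

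Class I genes were positive in 14 of 14, and 2 rose. H2-K1, a classical class I heavy chain, had 13.45 and 13.41 on probe set 93120_f_at in VC CA1, against 11.69 in wild-type CA1 and 11.37 in never-induced hippocampus (1.74 ± 0.21, 3.33-fold, adjusted p = 0.00829). H2-D1, the other classical heavy chain, had 12.45 and 13.03 in VC CA1, against 10.93 in wild-type CA1 on 97540_f_at (1.81, adjusted p = 0.0494) and 11.89 and 12.13 in VC CA1, against 9.93 in wild-type CA1 on 101886_f_at (2.08, adjusted p = 0.0128). Probe sets with the suffix f share probes within a gene family, so H2-K1, H2-D1 and their relatives may be read together on them. H2-K1 probe set 97700_at differed by -0.01 (adjusted p = 0.992). B2m, the light chain shared by class I molecules, had 12.63 and 13.55 in VC CA1, against 11.44 in wild-type CA1, with a difference of 1.65 that did not pass (adjusted p = 0.124). The list median was 1.15, with 0.94 on VC CA1 array 1 and 1.09 on array 2. The count of 2 became 6, with 13 of 14 positive, without VC CA1 array 1. It became 1 without VC CA1 array 2, either wild-type hippocampus array or either 1-week array, and 0 with the induced hippocampus as 1 level, with arrays weighted by region or in the fits that called no probe set; the other alternatives gave 1 or 2.

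The interferon list had no member that passed, with 11 of 16 positive and a median of 0.55; without VC CA1 array 1, 2 passed. Isg15, an interferon-induced ubiquitin-like protein, had 9.51 and 9.31 in VC CA1, 8.34 in wild-type CA1 and 7.10 in never-induced hippocampus (1.07, adjusted p = 0.511). In late induced hippocampus the same probe set was called higher by 2.40 (adjusted p = 0.0201). Of the 16 list members 6 rose there, beside 0.962% of all tested probe sets. For Isg15 the difference between the CA1 and the late effect was not called (adjusted p = 0.945).

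Chemokines that attract monocytes were higher on both VC arrays, and more so on array 2. Ccl12, a ligand of the receptor Ccr2, had 8.58 and 9.91 in VC CA1 and lay at the floor in wild-type CA1 and in never-induced hippocampus (3.21 ± 0.43, at least 9.26-fold, adjusted p = 0.0128). Ccl2, another Ccr2 ligand, had 8.78 and 9.75 in VC CA1, against 6.72 in wild-type CA1 (2.55 ± 0.34, 5.84-fold, adjusted p = 0.0128), with never-induced hippocampus at the floor. For both genes the 1-week arrays lay at the floor as well, and for Ccl2 the 2-week arrays, so SE and p rest on little spread. Outside VC CA1, Ccl2 read at most 7.11, and Ccl12 at most 7.21 save for 8.84 on the 5-week array. As 2 arrays above the median suffice for the filter, induced arrays alone could carry both genes through it. Ccl9, a ligand of Ccr1, had 10.18 and 11.27 in VC CA1, against 7.89 in wild-type CA1 (2.84 ± 0.40, 7.15-fold, adjusted p = 0.0145). In these 3 genes array 2 exceeded array 1 by about a log2 unit or more. Both arrays exceeded wild-type CA1 and every never-induced array, as in 8.36% of all tested probe sets. Cd14, a co-receptor for bacterial lipopolysaccharide on myeloid cells, had 11.64 and 12.95 in VC CA1, against 9.95 in wild-type CA1 (2.34 ± 0.44, adjusted p = 0.0498), close to the threshold. Among receptors, Csf3r, the receptor for granulocyte colony-stimulating factor, had 8.68 and 8.35 on 93198_at in VC CA1, against the floor in wild-type CA1 (2.48, at least 5.57-fold, adjusted p = 0.00558). Its brighter probe set 95807_at differed by 0.19 (adjusted p = 0.879). Tnfrsf1a, TNF receptor 1, had 9.10 and 9.20 in VC CA1, against 6.98 in wild-type CA1 and 8.20 in never-induced hippocampus (2.17, adjusted p = 0.0141).

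Other cytokine genes were higher on VC CA1 array 2 than on array 1 and did not pass. They were named after their values were seen. Tnf had 9.10 and 11.56 in VC CA1 and 7.61 in wild-type CA1 (2.72, adjusted p = 0.267). Ccl4 had 8.92 and 11.01 in VC CA1, against 7.32 in wild-type CA1 (2.65, adjusted p = 0.155), and Cxcl1 had 7.98 and 10.97 in VC CA1, against 8.75 in wild-type CA1 (0.73, adjusted p = 0.861). For Tnf and Ccl4 both VC arrays lay above wild-type CA1, whereas for Cxcl1 wild-type CA1 lay between them. Of the 23 genes of cytokine feedback and acute signalling, 2 (Ccl2 and Cd14) rose and 20 were positive, with a median of 0.65 in all, 0.36 on VC CA1 array 1 and 0.87 on array 2. The count of 2 became 6 without VC CA1 array 1 and 3 without array 2. It became 1 without wild-type hippocampus array 2 or any 1 of the 1-week and 2-week arrays, 1 with the induced hippocampus as 1 level, and 0 with arrays weighted by region or in the fits that called no probe set; the other alternatives gave 1 or 2. Socs3, a feedback inhibitor of cytokine receptors, had 9.59 and 10.54 in VC CA1, against 9.09 in wild-type CA1 and 7.23 in never-induced hippocampus (0.97, adjusted p = 0.394).

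Pdyn, from whose product the dynorphin opioids are cut, was the only one of 38 known CRE-driven targets to pass. That list count rests on its brighter probe set, 161987_at. Probe set 99840_at had 10.92 and 10.97 in VC CA1, 7.82 in wild-type CA1 and a mean of 6.49 in never-induced hippocampus (3.12 ± 0.38, 8.72-fold, adjusted p = 0.00829). Probe set 161987_at had 9.63 and 9.61 in VC CA1 and 6.30 in wild-type CA1 (3.32 ± 0.20, 9.97-fold, adjusted p = 0.000278). On it never-induced hippocampus averaged 9.50, close to VC CA1, so only wild-type CA1 was low. On 99840_at both VC arrays lay about 3 log2 units or more above every reference array. Pdyn is also on the dentate granule cell list, where it was the only one of 11 to rise, again read on 161987_at.

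The remaining CRE-driven genes mostly lay above wild type without passing: 34 of the 38 were positive, with a median of 0.27. Both VC arrays lay above wild-type CA1 in 19 of the 38, beside 29.4% of all tested probe sets. Bdnf had 12.70 and 12.67 in VC CA1, 11.88 in wild-type CA1 and 11.32 in never-induced hippocampus (0.81 ± 0.21, adjusted p = 0.152). In late induced hippocampus it was called higher by 0.87 (adjusted p = 0.0299). Inhba, a subunit of activin, had 8.59 and 8.45 in VC CA1, against 7.35 in wild-type CA1 (1.17, adjusted p = 0.212). Nfil3, a bZIP repressor, had 8.95 and 9.15 in VC CA1, against 7.03 in wild-type CA1 on 101805_f_at (2.02, adjusted p = 0.102). Its probe set 102955_at differed by 0.35 (adjusted p = 0.612). For these 3 genes both VC arrays lay above wild-type CA1. Npy, neuropeptide Y, had 13.57 and 12.87 in VC CA1, against 12.58 in wild-type CA1 (0.64), and Penk, proenkephalin, had 11.44 and 10.85 in VC CA1, against 11.55 in wild-type CA1 on its brighter probe set (-0.40). Crem, a CREB relative, lay under the filter, and Arc was not among the array's symbols.

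Immediate early genes separated the VC arrays from each other rather than VC from wild type. None of 29 passed, 26 were positive, and the median was 0.41, made of 0.00 on VC CA1 array 1 and 1.02 on array 2. Fos had 12.54 and 13.64 in VC CA1 and 12.57 in wild-type CA1. Fosb had 12.38 and 14.09 in VC CA1, against 13.16 in wild-type CA1, Egr1 had 11.96 and 13.33 in VC CA1, against 12.54 in wild-type CA1, and Nr4a1, a nuclear receptor, had 10.89 and 12.50 in VC CA1, against 11.46 in wild-type CA1. In Fosb, Egr1 and Nr4a1 wild-type CA1 lay between the VC arrays. The level was already high in wild-type CA1: Fos averaged 10.10 and Fosb 10.61 in never-induced hippocampus. Of the 29, 7 were called higher in wild-type CA1 than in never-induced hippocampus, beside 2.83% of all tested probe sets. With VC CA1 array 2 alone, 9 of the 29 passed, and with array 1 alone none did. Junb (0.51), Atf3 (0.92) and Gadd45b (1.05 on 161666_f_at) had both VC arrays above wild-type CA1 and did not pass either.

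**Figure D4:**
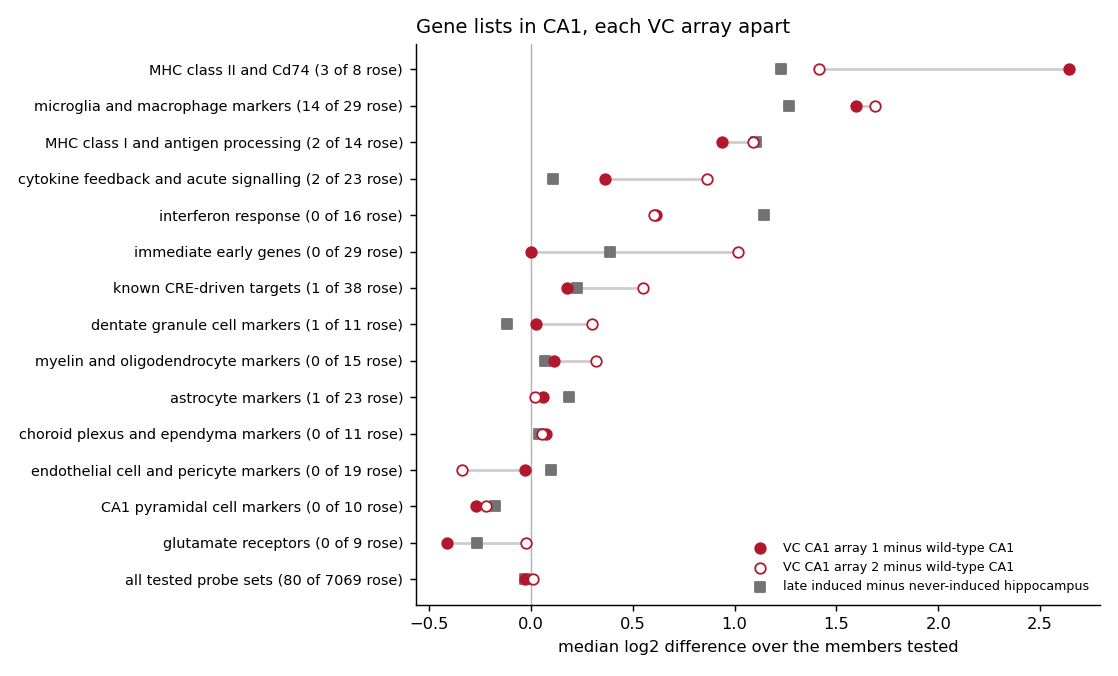
Median log2 difference over the tested members of 14 gene lists and over all tested probe sets, for VC CA1 array 1 minus wild-type CA1 (filled circles), VC CA1 array 2 minus wild-type CA1 (open circles) and late induced minus never-induced hippocampus (squares). The microglial list lies at 1.59 and 1.69 on the VC arrays, while immediate early genes lie at 0.00 on array 1 and 1.02 on array 2.

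Among astrocyte genes only Gfap, the intermediate filament of reactive astrocytes, passed. It had 14.09 and 13.52 on 94144_g_at in VC CA1, against 12.12 in wild-type CA1 and 12.03 in never-induced hippocampus (1.69 ± 0.29, 3.22-fold, adjusted p = 0.0354). On 94143_at it had 10.80 and 11.07 in VC CA1, against 9.51 in wild-type CA1 (1.42, adjusted p = 0.0456). The other astrocyte markers did not move with it: 14 of 23 were positive, with a median of 0.03. Secreted proteins of glia and blood were among the largest rises. A2m, the broad protease inhibitor alpha-2-macroglobulin, had 9.80 and 9.38 in VC CA1, against the floor in wild-type CA1 and 7.68 in never-induced hippocampus (3.56 ± 0.24, at least 11.8-fold, adjusted p = 0.000443). Chil1, a chitinase-like secreted protein, had 9.69 and 9.13 in VC CA1, against 6.91 in wild-type CA1 (2.50, adjusted p = 0.0170). Hspb8, a small heat shock protein, was the only one of 29 stress genes to rise, with 10.48 and 10.32 in VC CA1, against 9.25 in wild-type CA1 (1.16, adjusted p = 0.0476). Never-induced hippocampus averaged 10.23 on it, close to VC CA1, so mainly wild-type CA1 was low, and its late hippocampal difference was 0.15.

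No neuronal list had a member called lower. CA1 pyramidal markers were negative in 10 of 10, with both VC arrays below wild type in 6 (31.6% of all tested probe sets), and had a median of -0.30, or -0.27 and -0.22 on VC CA1 arrays 1 and 2. Their summed level was 34864 and 28570 in VC CA1 against 39081 in wild-type CA1, on the linear scale. The largest single difference among them was that of Doc2b, a calcium sensor of vesicle release, at -0.57 (adjusted p = 0.611). It is named here after its value was seen. Glutamate receptors had a median of -0.38 over 9 genes, synaptic vesicle genes -0.14 over 22 and postsynaptic genes -0.22 over 14, none of them called. Oligodendrocyte markers had a median of 0.24 over 15, endothelial markers -0.20 over 19 and choroid plexus markers -0.08 over 11, also with no call.

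Of the 6 genes with a symbol that fell, 4 were backed. Bhmt, betaine-homocysteine methyltransferase, had 6.14 and 6.56 in VC CA1, against 8.19 in wild-type CA1 and 8.71 in never-induced hippocampus (-1.84 ± 0.31, adjusted p = 0.0353). Dut, the dUTP pyrophosphatase, had 6.32 and 6.49 in VC CA1, against 8.15 in wild-type CA1 and 8.67 in never-induced hippocampus (-1.74, adjusted p = 0.0362). Hrc, a calcium-binding protein of the sarcoplasmic reticulum, had 7.91 and 7.80 in VC CA1, against 9.24 in wild-type CA1 (-1.38, adjusted p = 0.0204), and S100pbp had 7.84 and 7.54 in VC CA1, against 9.49 in wild-type CA1 (-1.80, adjusted p = 0.0498). In these 4 both VC arrays lay below wild-type CA1 and below all never-induced arrays, as in 13.2% of all tested probe sets. None of the 4 was called in late induced hippocampus, where they differed by -0.34, -0.07, -0.06 and -0.44. For Prkd2, protein kinase D2 (-1.45), and Ddx6, an RNA helicase (-1.83), never-induced hippocampus lay nearer to VC CA1, so that only the wild-type CA1 array was high.

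The 27 rises where only wild-type CA1 stood apart held none of the list members that rose. Gsta2, a glutathione transferase, had 8.24 and 8.20 in VC CA1, 6.12 in wild-type CA1 and 9.12 in never-induced hippocampus (2.10, adjusted p = 0.00558). H2bc22, a histone H2B gene, had 7.87 and 8.04 in VC CA1, against the floor in wild-type CA1 and 8.98 in never-induced hippocampus (1.92, at least 3.77-fold). Rapsn, which clusters acetylcholine receptors at the nerve-muscle synapse, had 8.99 and 8.96 in VC CA1, against 6.92 in wild-type CA1 and 9.51 in never-induced hippocampus (2.06, adjusted p = 0.00716). In all 3 the VC CA1 arrays lay below the never-induced mean and above wild-type CA1. Late induced minus never-induced hippocampus was -0.18, -0.10 and -0.14 for them.

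Effects in CA1 and in late induced hippocampus were then set against each other. Over all tested probe sets they correlated at 0.386, as a description across probe sets that are not independent, and at 0.611 over the 80 called higher in CA1. All 68 probe sets called higher in late induced hippocampus were positive in CA1. Cst7 read 8.94 to 11.49 in late induced hippocampus (4.47 there), Creb1 9.14 to 9.63 (3.13) and Gfap 13.56 to 14.35 (1.97), and for these 3 the test of the difference between the effects was not passed (0.37, 0.04 and -0.28, adjusted p = 0.981, 0.996 and 0.974). H2-Aa read 6.70 and 6.59 at 2 weeks and 9.90 at 5 weeks. A test of the difference called 11 probe sets (0.156%), 10 (0.141%) with a positive difference, CA1 effect minus late effect, and 1 (0.0141%) with a negative one. Cd52 had a CA1 effect of 4.23 and a late effect of 2.05 (difference 2.19 ± 0.28, adjusted p = 0.0450), and A2m 3.56 and 1.43 (2.12 ± 0.29, adjusted p = 0.0466). For both, both VC CA1 arrays lay above all never-induced arrays. Wild-type CA1 itself differed from the never-induced mean by -1.01 for Cd52 and, at the floor, by -1.64 for A2m. That low value enters both CA1 effects. Measured from the never-induced mean, VC CA1 lay 3.22 higher for Cd52 and 1.91 higher for A2m. Amacr, a racemase of branched-chain fatty acid oxidation, had 9.06 and 8.87 in VC CA1 and 7.23 in wild-type CA1, beside 8.66 in never-induced hippocampus, while its late effect was -1.29 and called lower (difference 3.03 ± 0.34, adjusted p = 0.0450). That late effect rests on the 5-week array, which lay at the floor, against 8.53 and 8.84 at 2 weeks. Pdyn 161987_at (2.17) has the low wild-type CA1 value described above, and 6 of the other 7 are among those where only wild-type CA1 stood apart. The remaining probe set, the unnamed 96565_at, fell by 2.29 in CA1 and differed by -0.03 in late induced hippocampus. With any 1 of the 6 replicated hippocampal arrays left out, none passed in limma (314 to 381 unadjusted).

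**Figure D5:**
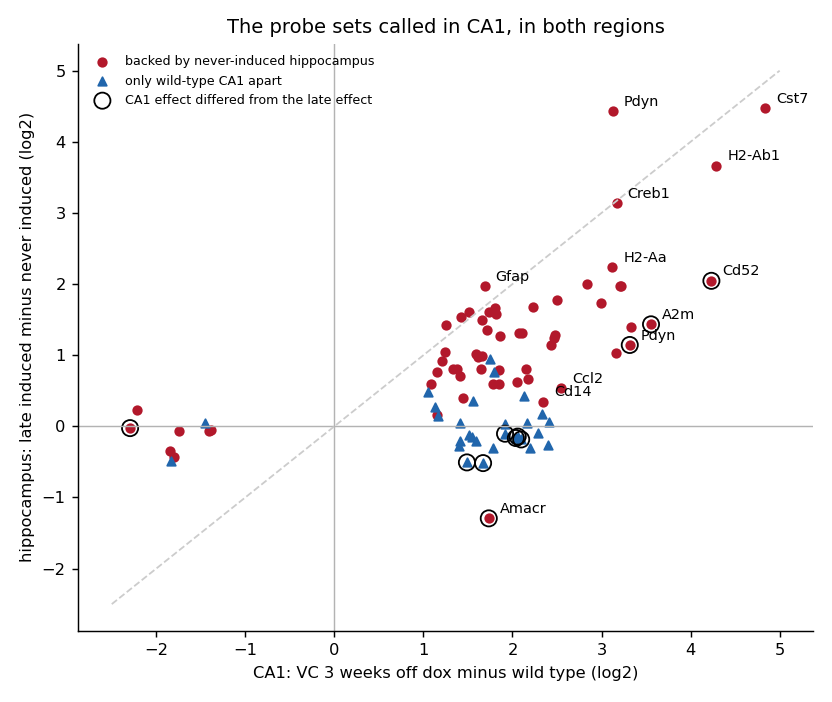
CA1 difference (x axis, VC 3 weeks off dox minus wild type) against late hippocampal difference (y axis, 2 and 5 weeks off dox minus never induced), log2, for the 89 probe sets called in CA1; the dashed line marks equal effects and open rings the 11 whose effects differed. Backed probe sets (red) such as Cst7 at 4.84 and 4.47 rise in both regions, while those where only wild-type CA1 stood apart (blue) scatter around 0 on the y axis.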

How the data were processed

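RNA from 12 mouse samples was measured on Affymetrix MG-U74Av2 arrays, 1 array per sample. The values the authors deposited are intensities on a linear scale, made with GCOS, the array software, per the submitters' processing notes; the sources used here give no version, algorithm or scaling, and detection calls were not used. The mean without the highest and lowest 2% of deposited values was 500.3 to 500.4 on 4 arrays (the 3 of CA1 and wild-type hippocampus 1) and 3002 on the other 8. Rescaling brought that mean to 1000 on every array, values under the 20th percentile of all 12 arrays together (65.7, or 6.04 as log2) were set to it, and log2 was taken. Of 12488 probe sets, 66 controls were left out. Tested were the 7069 probe sets above the array median on 2 or more arrays, of which 6405 had a single gene symbol in the platform annotation, updated through RefSeq.

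R 4.3.3 and limma 3.58.1 (lmFit and eBayes) fitted 7 levels over all 12 arrays: VC CA1, wild-type CA1, hippocampus at 1, 2 and 5 weeks, reversed, and never-induced. Residual degrees of freedom were 5. Tests were two-sided with Benjamini-Hochberg adjustment at 0.05. The p-values measure the spread between pooled samples, mainly of hippocampus, not between mice, and precision is limited by how few arrays there are. The steps were tested on simulated data. The members and the 32 gene lists were chosen with earlier results of these data known. Lists used the brightest tested probe set per gene. Named genes were the 15 largest rises and falls that passed, the 8 largest of each that were backed, up to 4 passing members per list, the 8 smallest p of the difference from late hippocampus, and a set of CREB, immune and marker genes; others are said to be named after their values were seen. Alternatives changed the levels, arrays, weights, scaling, floor, filter, prior and scale block, and left out each replicate. Promoters are those of RefSeq, GRCm38.p6.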

Additional observations from a re-analysis of the deposited data

Results flagged for a closer look

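A difference between the effect in CA1 and the effect in late induced hippocampus was called for 11 probe sets, each tested in limma on the log2 scale as CA1 effect minus late effect. It was positive for 10 of them. Among probe sets that never-induced hippocampus backed, it was 2.19 for Cd52, 2.12 for A2m, 2.17 for Pdyn 161987_at and 3.03 for Amacr, and -2.27 for the unnamed 96565_at. Of these, Pdyn 161987_at and Amacr had never-induced levels (9.50 and 8.66) nearer to VC CA1 than to wild-type CA1 (6.30 and 7.23). Among those where only wild-type CA1 stood apart, it was 2.28 for Gsta2, 2.02 for H2bc22, 2.19 for Map3k11, a kinase of the JNK pathway, 2.20 for Rapsn, 2.20 for Cyb561, an electron carrier of secretory vesicles, and 2.00 for the unnamed 99945_at. For these 6 the late effect lay between -0.52 and -0.10. Wild-type CA1 also lay under the never-induced mean for Cd52 (-1.01) and, at the floor, for A2m (-1.64).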

How the results depend on the processing

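No paired analysis was possible because the lone wild-type CA1 array carries no replicate number. The 89 calls in CA1 became 33 with 5 levels, 5 with array weights by region (CA1 weight 0.414, hippocampus 1.34), 57 with the floor at the 30th percentile, 57 with trend and robust settings and 344 without the filter (157 higher, 187 lower). They became 0 with CA1 arrays only or with arrays of the lower deposited scale only (270 unadjusted each, limma), and 0 with values as deposited (36 unadjusted). Leaving out 1 replicate gave 42 to 381, and 39 of the 89 passed in all 8 such fits. The 11 differences between CA1 and late hippocampus became 4 with 5 levels, 17 with the floor at the 10th percentile and 188 without the filter. They became 0 with 8 levels, region weights, deposited values, the floor at the 30th percentile, log2(value + 50), trend and robust settings or the deposited scale as a block (10 to 371 unadjusted), and leaving out 1 replicate gave 0 to 73. The 73 late calls became 2 with 5 levels, 6 as deposited, 32 with the scale block and 32 to 83 with 1 replicate left out. The 818 calls of wild-type CA1 against never-induced hippocampus became 460 with 8 levels, 56 with region weights, 111 as deposited, 164 with the scale block, 0 with the lower scale only and 298 to 1674 with 1 replicate left out. Rescaled by the median, that comparison called 461 higher and 299 lower, of which 498 were among the 818, and the median of all tested probe sets was 0.17 in place of -0.13. Fewer arrays or more levels leave fewer residual degrees of freedom; the cause of the other changes was not tested. The 38 named probe sets that passed kept their direction in every setting that tested them, which with the stricter filter was 24 of the 38. They were picked because they passed. Changes of levels, weights, prior, filter or hippocampal arrays cannot turn a CA1 difference. Only changes of scaling, of the floor or of the VC CA1 array kept could have done so. Uncalled genes turned with the VC array kept. With array 1 kept and with array 2 kept, the differences were -0.57 and 1.04 for Nr4a1, -0.79 and 0.93 for Fosb, -0.58 and 0.79 for Egr1, -0.030 and 1.07 for Fos, 0.30 and -1.30 for Penk 94517_r_at, -0.51 and 0.079 for Wfs1, -0.89 and 0.73 for Ttr, 0.16 and -0.14 for Sst and -0.13 and 0.11 for H2-K1 97700_at. Ttr was 0.27 with the floor at the 30th percentile and Sst -0.029 rescaled by the median. Never-induced hippocampus lay nearer to VC CA1 than to wild-type CA1 for 39 of the 80 higher probe sets, and for 36 to 41 under 4 alternatives.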

Other observations

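Some probe sets separated the VC CA1 arrays far more than VC from wild type. These were picked by that gap after the values were seen. Snrpb 160555_r_at, a spliceosome protein gene, had 13.35 on VC CA1 array 1 and 6.04, the floor, on array 2, against 13.09 in wild-type CA1 and 13.71 in never-induced hippocampus. Sf3a2, another splicing factor gene, had 11.93 and 7.37 in VC CA1, against 11.97 in wild-type CA1. In the other direction, Errfi1, a feedback inhibitor of the EGF receptor, had 6.60 and 10.66 in VC CA1 against 7.31 in wild-type CA1, and 10.08 in never-induced hippocampus. Ssr3, of the translocon complex, had 6.04 and 10.12 in VC CA1, against 7.50 in wild-type CA1, and 9.10 in never-induced hippocampus. For these last 2 genes, array 2 lay nearer to never-induced hippocampus than to wild-type CA1, and array 1 nearer to wild-type CA1. Il1a, the cytokine interleukin-1 alpha, had 9.33 and 12.97 in VC CA1, against 8.59 in wild-type CA1 and 7.11 in never-induced hippocampus. None of these 5 was called.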
